A study of Mus musculus with 10 samples.

Results

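The genes described here encode the machinery by which the endoplasmic reticulum (ER) takes in, folds and disposes of newly made proteins. They were chosen by gene symbol, as every listed gene that matched a naming rule. The rule took names that begin with a root such as Sec61, Ssr, Srp, Spcs, Stt3, Pdia, Erp, Edem, Derl, Dnajb or Dnajc. It also took names that equal that of an ER chaperone. The rule used no values, although it was chosen with earlier results of these data known. It gave 88 of the 12160 genes in the deposited table. All 88 were measured in 10 RNA-seq libraries, of which 5 came from pancreatitis tuft cells sorted as Cd45-neg; EpCAM+; Siglec f+ and 5 from non-tuft epithelial cells sorted as Cd45-neg; EpCAM+; Siglec f-neg. Every library was made from 100 cells of an individual wild type male mouse, and both cell types came from 5 mice with pancreatitis, although the labels do not say which tuft and non-tuft libraries share a mouse. The mice received 4 cycles of caerulein at 250 μg/kg, an agent that overstimulates acinar cells, and no untreated pancreas was part of the comparison. The study describes caerulein as an inducer of ER stress in acinar cells, and gives the recovery time before sorting as a range of days. The study describes CD-1 mice, the strain field of the records reads Mixed, and an age is not given in the sources used here. The non-tuft gate takes all EpCAM+ cells without Siglec f, so those libraries are mixtures of acinar, ductal and islet cells rather than one cell type.

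Secreted and membrane proteins enter the ER through the Sec61 channel, guided by the signal recognition particle, and lose their signal peptide to the signal peptidase while the oligosaccharyltransferase attaches sugar chains. Chaperones such as BiP (Hspa5) and the disulfide isomerases fold them, and proteins that fail to fold are drawn back out and degraded, a route called ER-associated degradation. When folding capacity runs short, the sensors Ire1 (Ern1, Ern2), Perk (Eif2ak3) and Atf6 start the unfolded protein response, in which the transcription factors Xbp1, Atf4 and Atf6 induce many of these genes. Acinar cells, which make the digestive enzymes, are known for a very large rough ER.

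Values are log2(RPKM + 1) after the quantile normalization applied by the authors, where RPKM scales reads to transcript length and library total, so levels can be set beside each other between genes. Genes with no signal share the minimum of their library, here termed the floor, which equalled 0.17 for non-tuft library 2 and 0 for all others. Since read counts are not part of the table, depth is unknown and expression below the floor cannot be bounded. Of the 88 genes, 74 were above the floor in all 10 libraries and 80 had a log2 mean of 2 or more. Differences were tested with limma over all 12160 genes, and a gene is said to have passed, risen or fallen at a Benjamini-Hochberg adjusted p under 0.05. Because each library holds RNA of a fixed number of sorted cells, fewer cells of a type and less RNA per cell cannot be told apart.

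Marker genes were checked first. All 11 listed tuft markers were higher in tuft cells, with summed linear levels of 3423 to 10400.0 in the tuft and 0.333 to 489 in the non-tuft libraries. Of 27 listed acinar markers, 21 were lower in tuft cells, and their summed level ranged from 144669 to 197104 in the non-tuft and from 1635 (library 5) to 129325 (library 4) in the tuft libraries. Ductal markers summed to 643 to 1179 in tuft and 1493 to 8304 in non-tuft libraries, and islet markers to 1.24 to 108 and 2.71 to 22086. Leukocyte markers summed to at most 42.6 in tuft and 42.8 in non-tuft libraries and stromal markers to at most 179 and 617, both in library 5, and none of 4 eosinophil markers, which matter because eosinophils carry Siglec f, was listed.

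Pancreatitis tuft cells had lower levels of part of this machinery. The lower genes were 5 of 10 disulfide isomerases and oxidases, 4 of 10 genes of Xbp1 and ER-associated degradation, 3 of 15 chaperones and cofactors and 4 of 23 translocation genes, while 0 of 19 further ER-associated degradation genes outside the set were lower. Of the 88 genes, 16 were lower in tuft cells (18.2%), against 5.55% of all listed genes, and 1 was higher, against 6.19%. At mean log2 levels from 5 upward over all libraries, 12 of 46 members were lower (26.1%), against 8.32% of all 1526 such genes. Of the 46, 14 did not overlap in that direction (30.4%, against 10.7%). A gene could reach this level through the non-tuft libraries alone, as Erp27 did (mean 1.66 in tuft and 8.86 in non-tuft cells). These shares are therefore a description and not separate support. With the fold threshold of 4 that the study applied, 9 were lower, against 3.99% of all genes. The median log2 fold change was -0.47 over the 88 genes and 0.021 over all genes. The largest differences were those of Erp27, Pdia2 and Derl3. Xbp1, Hsp90b1, Calr and the 5 oligosaccharyltransferase subunits among the 88 genes did not pass the test.

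The levels of the tuft and non-tuft libraries did not overlap for 19 of the 88 genes, all lower in tuft cells, against 5.12% of all genes in that direction and 6.31% in the other. The median over the members in a library lay between 4.42 and 4.65 in the tuft and between 5.20 and 5.83 in the non-tuft libraries. Of the 16 lower genes, 10 kept an adjusted p under 0.05 when any 1 library was left out, and 11 genes were lower without tuft library 4, which held the most acinar signal of the tuft libraries. The scale matters for the direction. When each library was centred on its 74 listed ribosomal protein genes, the median of all genes rose by 0.80 and that of the members to 0.33, and 4 members (Erp27, Pdia2, Derl3 and Edem1) were lower and 6 higher, against 2.37% and 17.9% of all genes. The centring moves the fold change of every gene by the same amount. The median of the members minus that of all genes therefore stays at -0.49 by construction.

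**Figure D1:**
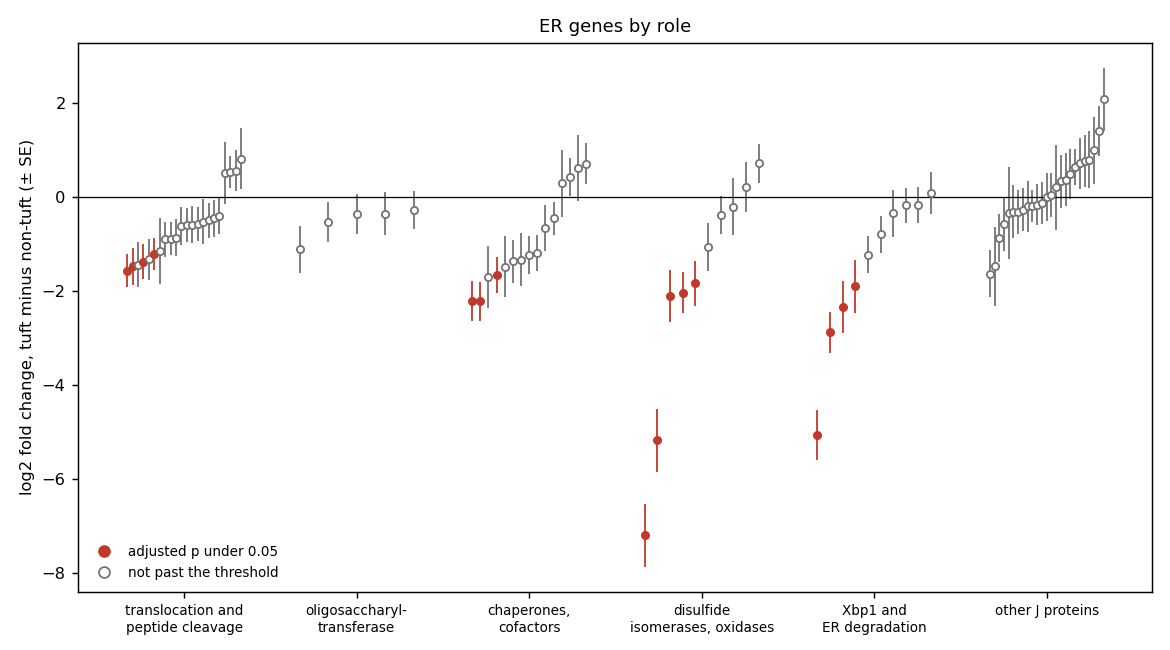
Log2 fold change (tuft minus non-tuft, vertical axis, bars show the standard error from limma) of the ER genes sorted within their role, with filled points for an adjusted p under 0.05. Srp54b is left out because the non-tuft libraries all sat at the floor. The disulfide isomerase and ER degradation classes hold the lowest points, -7.20 for Erp27 and -5.06 for Derl3, and no gene among the other J proteins passed.

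Some of these genes share a promoter sequence. The selection by name did not read promoters, but many of the genes are known to be induced in the unfolded protein response. The share of the set with the sequence is therefore a description and not separate support. The ER stress response element is the classic binding site of Atf6, and of Xbp1, together with the factor NF-Y, and was searched in its full form as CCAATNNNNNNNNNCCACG on both strands of RefSeq promoters (GRCm38.p6, 250 bases before to 50 after the start site). Promoters were found for 70 of the 88 genes, and 9 of those (12.9%) held the element, against 37 of 27025 genes in the promoter table (0.137%). The 9 genes were Derl3, Dnajc3, Pdia6, Hspa5, Creld2, Canx, Calr, Hsp90b1 and Ero1lb, and Hsp90b1 held it at 2 positions. None of the 18 matched J proteins outside the ER group held it. Of 86 matched genes in a further list of 118 ER genes, described with the regulators, 2 did. Among the 86, Alg2 was matched through a synonym to the promoter of Pdcd6, a different gene, which did not hold the element. The promoters of the 4 genes with the smallest p among these 9 are shown because they carry the same element while their genes span the range from a large difference to none that passed, with the conserved ends of the element in capitals and only the 250 bases before the start site printed.
Derl3: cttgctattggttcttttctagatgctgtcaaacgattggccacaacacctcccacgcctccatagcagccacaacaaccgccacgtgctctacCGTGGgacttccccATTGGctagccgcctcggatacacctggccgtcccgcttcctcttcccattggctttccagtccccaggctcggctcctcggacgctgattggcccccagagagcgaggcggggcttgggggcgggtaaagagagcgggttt
Dnajc3: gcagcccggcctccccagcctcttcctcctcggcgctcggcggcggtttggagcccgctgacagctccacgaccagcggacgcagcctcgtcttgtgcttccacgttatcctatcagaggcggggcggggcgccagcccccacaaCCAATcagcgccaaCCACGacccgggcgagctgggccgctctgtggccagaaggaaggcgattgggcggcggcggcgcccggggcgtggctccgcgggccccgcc
Pdia6: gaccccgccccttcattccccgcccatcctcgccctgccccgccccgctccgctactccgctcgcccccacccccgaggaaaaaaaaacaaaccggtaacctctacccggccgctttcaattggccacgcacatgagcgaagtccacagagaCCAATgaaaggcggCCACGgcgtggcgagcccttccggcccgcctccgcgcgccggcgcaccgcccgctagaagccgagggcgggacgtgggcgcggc
Hspa5: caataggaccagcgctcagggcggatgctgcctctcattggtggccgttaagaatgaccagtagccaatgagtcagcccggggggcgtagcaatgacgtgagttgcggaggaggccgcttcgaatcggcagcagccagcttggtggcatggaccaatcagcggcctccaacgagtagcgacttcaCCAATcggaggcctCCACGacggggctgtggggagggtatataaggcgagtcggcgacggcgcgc

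The printed stretches are Derl3 chr10:75893148-75893397, plus strand; Dnajc3 chr14:118937682-118937931, plus strand; Pdia6 chr12:17266339-17266588, plus strand; and Hspa5 chr2:34771840-34772089, plus strand. The element starts 105 bases before the start site of Dnajc3, 98 before that of Pdia6 and 65 before that of Hspa5, and in Derl3 it lies on the opposite strand, with its first printed base 156 bases before the start site. Of the 9 genes with the element, 3 (Derl3, Dnajc3 and Pdia6) were lower in tuft cells and 6 did not pass, with log2 fold changes from -5.06 for Derl3 to 0.43 for Hsp90b1. Among the 14 lower members with a promoter in the table, 3 held the element (21.4%), and among the 55 that did not pass, 6 did (10.9%). A match is only a match of letters and does not show that a factor binds there in these cells.

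The 23 translocation and signal peptide cleavage genes cover the Sec61 channel, the signal recognition particle and its receptor, the translocon-associated Ssr complex and the signal peptidase. Of these, 4 fell and 1 rose, and the class had a median log2 fold change of -0.60. Ssr3, a subunit of the translocon-associated complex (chromosome 3, 65183577 to 65196545 on mm9, as are all gene positions here), was listed at 5.27, 5.35, 6.08, 5.32 and 5.63 in tuft libraries 1 to 5 and 6.71, 6.93, 7.59, 7.04 and 7.18 in non-tuft libraries 1 to 5. Every tuft library was below every non-tuft library (log2 fold change -1.56, standard error 0.36, adjusted p = 0.0125, limma). Sec61b, a small subunit of the channel (chromosome 4, 47487530 to 47496114), was at 5.64, 5.16, 4.65, 5.04 and 4.60 in tuft libraries 1 to 5 and 6.96, 6.82, 5.85, 6.56 and 6.27 in non-tuft libraries 1 to 5. The groups again did not overlap (log2 fold change -1.47, standard error 0.39, adjusted p = 0.0245, limma), but the call was lost without tuft library 3 or 5 (adjusted p between 0.0608 and 0.0632). Srp72, a protein of the signal recognition particle, ranged from 4.25 to 5.36 in tuft and from 5.93 to 6.35 in non-tuft libraries (log2 fold change -1.37, standard error 0.37, adjusted p = 0.0278, limma), and lost its call without tuft library 3, 4 or 5 (adjusted p between 0.0555 and 0.0659). Ssr1, named here because it is the remaining gene of the class that fell, ranged from 5.69 to 6.27 and from 6.90 to 7.49 (log2 fold change -1.21, standard error 0.34, adjusted p = 0.0363, limma) and lost its call without tuft library 2, 3, 4 or 5 (adjusted p between 0.0503 and 0.0777) and with 0.1 added to each RPKM (adjusted p = 0.0608, limma).

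Other subunits of the same machinery did not pass. Sec61a1, which forms the channel itself (chromosome 6, 88453595 to 88468899), was at 8.15, 7.61, 9.04, 6.64 and 8.71 in tuft libraries 1 to 5 and 8.11, 8.66, 9.13, 8.21 and 8.63 in non-tuft libraries 1 to 5. These values overlapped widely (log2 fold change -0.52, standard error 0.48, adjusted p = 0.553, limma). Ssr4 had the highest mean of all 88 genes in both groups, with 8.61 ± 0.45 (SD, n = 5 libraries) in tuft and 9.19 ± 0.45 (SD, n = 5 libraries) in non-tuft cells (adjusted p = 0.395, limma). Spcs1 of the signal peptidase was at 5.99 ± 0.25 and 6.56 ± 0.40 (SD, n = 5 libraries each, adjusted p = 0.363, limma). Subunits of one complex thus lay on both sides of the threshold, and whether the subunits differed from one another was not tested.

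Srp54b was the 1 member listed higher in tuft cells. It encodes the GTPase subunit of the signal recognition particle and sat at the floor throughout the non-tuft libraries and in tuft library 1, and stood at 4.43, 4.10, 4.16 and 3.88 in tuft libraries 2 to 5 (adjusted p = 0.00973, limma). No fold change is given because a whole group was at the floor. Srp54b, Srp54a and Srp54c are close copies on chromosome 12, and the annotation places Srp54a (56181557 to 56214680) inside the span of Srp54b (56181483 to 56290200), so reads may have been divided among the copies in the authors' quantification and each single value is uncertain. Srp54a ranged from 2.02 to 4.45 in tuft and from 1.65 to 4.52 in non-tuft libraries (adjusted p = 0.486, limma), and Srp54c from 2.26 to 3.91 and from 0.17 to 4.09 (adjusted p = 0.680, limma). With the linear values of the 3 copies added, the log2 level was 2.97, 5.82, 5.49, 5.63 and 5.27 in tuft libraries 1 to 5 and 3.57, 2.62, 5.29, 3.83 and 4.66 in non-tuft libraries 1 to 5, so the groups overlapped.

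None of the 5 oligosaccharyltransferase genes of the set (Rpn1, Rpn2, Ddost, Stt3a and Stt3b) passed the test. Their log2 fold changes ran from -1.11 to -0.27, with 1 unadjusted p under 0.05. Ddost, a structural subunit (chromosome 4, 137860645 to 137868543), was at 6.19, 6.14, 7.23, 6.24 and 7.20 in tuft libraries 1 to 5 and 6.18, 6.28, 7.71, 6.80 and 7.78 in non-tuft libraries 1 to 5. The spread within each group was larger than the difference between them (log2 fold change -0.35, standard error 0.46, adjusted p = 0.683, limma). Rpn2 ranked second of the 88 genes by mean level in tuft cells, at 8.48 ± 0.70 against 8.74 ± 0.20 in non-tuft cells (SD, n = 5 libraries each, adjusted p = 0.733, limma). Further subunits, named after their values were seen, are in the list of ER genes described with the regulators. Krtcap2, Ostc and Magt1 fell there without overlap, with log2 fold changes of -2.32, -1.62 and -1.64 (adjusted p = 0.00101, 0.00672 and 0.00745, limma). Dad1, Ost4 and Tusc3 did not pass (adjusted p = 0.425, 0.868 and 0.721, limma).

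Among 15 chaperones and their ER cofactors, 3 fell, none rose, and the median log2 fold change was -1.22. Sdf2l1, a cofactor that works with BiP and its J proteins (chromosome 16, 17130231 to 17132476), was at 3.31, 4.48, 4.61, 4.10 and 4.88 in tuft libraries 1 to 5 and 6.61, 6.68, 5.80, 6.33 and 7.04 in non-tuft libraries 1 to 5. Dnajc3, a J protein of the ER lumen also known as p58IPK, with the element in its promoter (chromosome 14, 119337154 to 119380924), was at 5.71, 5.81, 5.18, 4.57 and 6.09 in tuft libraries 1 to 5 and 8.05, 8.45, 7.30, 7.24 and 7.41 in non-tuft libraries 1 to 5. Manf, a secreted ER stress protein that binds BiP (chromosome 9, 106740643 to 106794310), was at 6.13, 6.23, 5.10, 5.78 and 5.71 in tuft libraries 1 to 5 and 8.004, 7.47, 7.25, 7.20 and 7.31 in non-tuft libraries 1 to 5. For each of these genes every tuft library lay below every non-tuft library. The log2 fold changes were -2.22 for Sdf2l1 (standard error 0.42, adjusted p = 0.00377, limma), -2.22 for Dnajc3 (standard error 0.43, adjusted p = 0.00428, limma) and -1.66 for Manf (standard error 0.37, adjusted p = 0.0109, limma).

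Hspa5, Hsp90b1, Calr and Canx did not pass the test. Hspa5, which encodes BiP, the central Hsp70 of the ER, with an ER stress response element in its promoter (chromosome 2, 34627490 to 34632051), was at 7.64, 6.74, 7.33, 6.79 and 7.93 in tuft libraries 1 to 5 and 8.69, 8.86, 8.32, 7.79 and 8.88 in non-tuft libraries 1 to 5. Tuft library 5 lay above non-tuft library 4, and the difference missed the threshold (log2 fold change -1.22, standard error 0.40, adjusted p = 0.0685, limma). It passed without non-tuft library 4 (adjusted p = 0.0446) and with 10 in place of 1 added to each RPKM (adjusted p = 0.0163, limma). It also passed with only genes whose log2 mean reached 2 kept (adjusted p = 0.0425) and with trend and robust variance settings (adjusted p = 0.0157, both limma). It did not pass with 0.1 added (adjusted p = 0.109) or under the ribosomal protein centring (log2 fold change -0.42, adjusted p = 0.556, both limma). Hsp90b1, the ER form of Hsp90, was at 7.43, 7.78, 7.53, 7.17 and 7.55 in tuft libraries 1 to 5 and 7.25, 7.97, 6.99, 6.06 and 7.01 in non-tuft libraries 1 to 5, with a mean that was higher in tuft cells by 0.43 (standard error 0.41, adjusted p = 0.555, limma). The lectin chaperone Calr was at 7.53 ± 0.29 in tuft and 7.98 ± 0.32 in non-tuft cells (SD, n = 5 libraries each, adjusted p = 0.483, limma). Its membrane-bound relative Canx was at 3.29, 3.18, 5.36, 4.91 and 5.86 in tuft libraries 1 to 5 and 5.54, 4.32, 6.78, 6.72 and 6.62 in non-tuft libraries 1 to 5 and did not pass (log2 fold change -1.48, adjusted p = 0.176, limma).

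Creld2 and Hyou1, which are induced with BiP under ER stress, had log2 fold changes of -1.37 (adjusted p = 0.0765, limma) and -1.33 (adjusted p = 0.159, limma) and did not pass. Creld2 passed without non-tuft library 4 (adjusted p = 0.0397), with 10 added to each RPKM (adjusted p = 0.0484, limma) and with trend and robust settings (adjusted p = 0.0496, limma). It did not pass with 0.1 added (adjusted p = 0.116) or under the ribosomal protein centring (adjusted p = 0.479, both limma). Dnajb9, a target of spliced Xbp1, ranged from 4.79 to 6.16 in tuft and from 3.98 to 5.46 in non-tuft libraries (log2 fold change 0.72, adjusted p = 0.343, limma). The 15 genes thus ranged from -2.22 to 0.72 in log2 fold change.

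The disulfide isomerases and oxidases held the highest share of genes that fell, 5 of 10, and none rose. Erp27, a disulfide isomerase family member without a catalytic site of its own (chromosome 6, 136855832 to 136870701), was at 3.18, 0, 3.34, 1.78 and 0 in tuft libraries 1 to 5 and 8.67, 9.32, 8.26, 9.13 and 8.92 in non-tuft libraries 1 to 5. It ranked second of the 88 genes by mean level in non-tuft cells and at 81 in tuft cells, where 2 libraries were at the floor (log2 fold change -7.20, standard error 0.67, adjusted p = 2.70e-05, limma). Pdia2, an isomerase known as a pancreas-specific family member (chromosome 17, 26332944 to 26336032), was at 5.09, 3.38, 3.25, 5.25 and 1.29 in tuft libraries 1 to 5 and 8.84, 9.61, 8.22, 8.63 and 8.84 in non-tuft libraries 1 to 5. It ranked at 3 in non-tuft cells and at 59 in tuft cells (log2 fold change -5.18, standard error 0.67, adjusted p = 3.13e-04, limma). Both genes showed no overlap between the groups. With 0.1 or 10 in place of 1 added to each RPKM, the log2 fold change of Erp27 was -8.67 or -5.15 and that of Pdia2 -5.38 or -4.26.

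Pdia6, an isomerase that acts with BiP and has the element in its promoter (chromosome 12, 17273351 to 17291576), was at 5.89, 5.36, 6.42, 5.03 and 6.81 in tuft libraries 1 to 5 and 7.74, 8.28, 7.82, 7.42 and 8.42 in non-tuft libraries 1 to 5, again without overlap (log2 fold change -2.03, standard error 0.44, adjusted p = 0.00781, limma). Erp44, which retains client proteins by disulfide bonds, and Pdia5 also fell and are named because they complete the class. Erp44 ranged from 2.75 to 5.16 in tuft and from 4.80 to 6.32 in non-tuft libraries (log2 fold change -2.10, adjusted p = 0.0243, limma), and lost its call when non-tuft library 3, 4 or 5 was removed, or tuft library 1, 2 or 4 (adjusted p between 0.0559 and 0.0670). Pdia5 ranged from 0 to 1.58 and from 1.78 to 3.59 (log2 fold change -1.83, adjusted p = 0.0245, limma), and lost its call when non-tuft library 1, 3 or 5 was removed, or tuft library 2, 3 or 4 (adjusted p between 0.0525 and 0.0592). With 0.1 added to each RPKM, Erp44 and Pdia5 missed the threshold (adjusted p = 0.0506 and 0.0628, limma), and with 10 added the log2 fold change of Pdia5 was -0.57.

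The other 5 genes of the class did not pass. Pdia4, whose product carries more thioredoxin domains than most of the family, ranged from 4.87 to 6.81 in tuft and from 5.59 to 7.53 in non-tuft libraries (log2 fold change -1.07, adjusted p = 0.215, limma). Ero1lb, the oxidase that recharges the isomerases in secretory pancreas cells, was at 5.60 ± 0.27 and 5.98 ± 0.68 (SD, n = 5 libraries each, adjusted p = 0.608, limma). Pdia3, which works with Calr and Canx on glycoproteins, was the most abundant isomerase in tuft cells at 8.03 ± 1.03, against 8.23 ± 1.07 in non-tuft cells (SD, n = 5 libraries each, adjusted p = 0.880, limma). Erp29 had a mean that was higher in tuft cells by 0.73 (adjusted p = 0.313, limma), and passed under the ribosomal protein centring (adjusted p = 0.0476, limma). Pdia3 and Erp29 were named after their values were seen.

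In the class of Xbp1 and ER-associated degradation, 4 of 10 genes fell and none rose. Derl3, a derlin of the retrotranslocation channel with the element in its promoter (chromosome 10, 75356143 to 75358686), was at 1.88, 0, 2.00, 0 and 2.53 in tuft libraries 1 to 5 and 6.54, 6.52, 6.20, 6.32 and 6.14 in non-tuft libraries 1 to 5. The non-tuft libraries lay close together while 2 tuft libraries were at the floor (log2 fold change -5.06, standard error 0.53, adjusted p = 6.04e-05, limma). With 0.1 or 10 in place of 1 added to each RPKM, its log2 fold change was -6.58 or -2.92. Of its relatives, Derl1 (log2 fold change -0.17, adjusted p = 0.817) and Derl2 (log2 fold change -0.34, adjusted p = 0.714, both limma) did not pass. Whether the 3 derlins differed from one another was not tested.

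Edem1, a lectin that hands misfolded glycoproteins to the degradation machinery (chromosome 6, 108778635 to 108809350), was at 2.41, 1.61, 2.53, 1.32 and 1.80 in tuft libraries 1 to 5 and 4.84, 5.49, 3.73, 5.19 and 4.78 in non-tuft libraries 1 to 5. Sel1l, the adaptor of the Hrd1 ubiquitin ligase (chromosome 12, 93044483 to 93087597), was at 5.50, 4.70, 4.51, 2.50 and 4.30 in tuft libraries 1 to 5 and 6.76, 7.43, 6.44, 6.79 and 5.77 in non-tuft libraries 1 to 5. Neither gene overlapped between the groups, with a log2 fold change of -2.87 for Edem1 (standard error 0.44, adjusted p = 9.72e-04, limma) and -2.34 for Sel1l (standard error 0.55, adjusted p = 0.0132, limma). With 10 added to each RPKM, the log2 fold change of Edem1 was -1.54. Edem2, the remaining gene that fell, ranged from 3.05 to 5.60 and from 5.23 to 6.95 (log2 fold change -1.90, adjusted p = 0.0431, limma), and lost its call in 7 of the 10 fits without 1 library, namely with non-tuft library 2, 3, 4 or 5, or else tuft library 1, 2 or 4, removed (adjusted p between 0.0680 and 0.106). Edem2 also missed the threshold with 0.1 added to each RPKM (adjusted p = 0.0841, limma). Herpud1, an ER stress-induced component of the same machinery, was at 6.13 ± 0.43 in tuft and 6.92 ± 0.43 in non-tuft cells (SD, n = 5 libraries each, adjusted p = 0.222, limma).

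Xbp1, the transcription factor of the Ire1 branch (chromosome 11, 5420662 to 5425896), was at 6.09, 6.72, 7.56, 6.70 and 7.88 in tuft libraries 1 to 5 and 6.57, 6.15, 7.25, 7.09 and 7.42 in non-tuft libraries 1 to 5. The ranges overlapped (log2 fold change 0.098, standard error 0.45, adjusted p = 0.922, limma), and by mean level it ranked at 10 of the 88 genes in tuft cells and at 19 in non-tuft cells. Gene-level values do not separate spliced from unspliced Xbp1 mRNA, so they do not measure Ire1 activity.

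**Figure D2:**
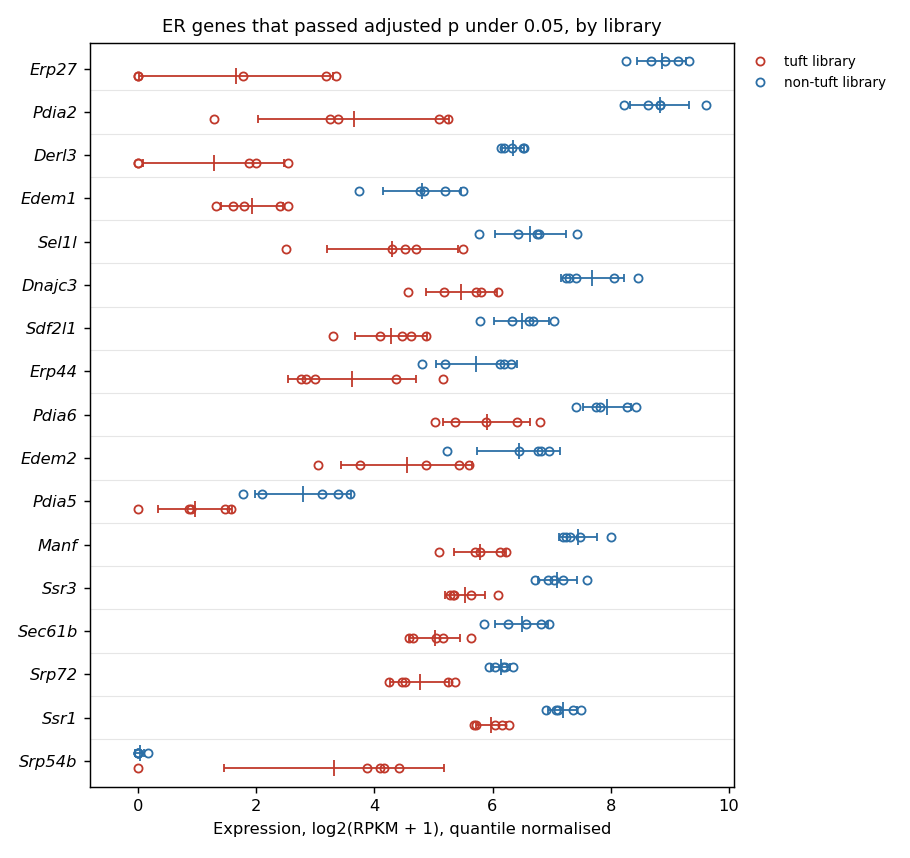
Expression on the log2(RPKM + 1) scale (horizontal axis) of the 17 ER genes with an adjusted p under 0.05, with 1 open circle per library, a tick for the group mean and bars for the SD (n = 5 libraries). Tuft libraries sit below all non-tuft libraries for 14 of the 16 lower genes, Erp44 and Edem2 overlap, and Srp54b sits at the floor throughout the non-tuft group.

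The 25 other J proteins (Dnajb and Dnajc genes outside the ER group) serve as Hsp70 partners mainly in the cytosol, nucleus and mitochondria. None passed the test in either direction, 3 had an unadjusted p under 0.05, and the median log2 fold change was 0.00810, with 12 below and 13 above 0. Without them, 16 of 63 genes were lower (25.4%) and the median log2 fold change was -0.79. The J proteins were expressed at lower levels, with a median of the gene means of 2.99 in non-tuft cells against 6.32 for the 63, and whether the classes differ in their response was not tested.

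To place these genes in their pathway, a second list of 118 ER genes whose symbols the rule does not cover was examined, of which 110 were listed in the table. Of these, 22 were lower in tuft cells (20.0%, against 5.55% of all genes) and 2 were higher. The list was chosen with earlier results of these data known, so this share is a description and not separate support. By role, 7 of 25 folding enzymes and 7 of 22 regulators and targets of the unfolded protein response were lower. The counts were 6 of 26 for N-glycosylation, 2 of 18 for translocation and 0 of 19 for ER-associated degradation. In the last class 2 genes had an unadjusted p under 0.05. Fkbp11, a proline isomerase of secretory cells, was at 2.79, 2.42, 1.49, 2.10 and 2.31 in tuft libraries 1 to 5 and 7.01, 7.91, 5.67, 7.26 and 6.79 in non-tuft libraries 1 to 5, without overlap (log2 fold change -4.70, standard error 0.46, adjusted p = 3.89e-05, limma). P4hb, the founding disulfide isomerase and named after its values were seen, was at 6.82 ± 0.59 in tuft and 8.82 ± 0.45 in non-tuft cells (SD, n = 5 libraries each, adjusted p = 0.00625, limma).

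The 2 higher genes, Dpagt1 and Alg6, encode enzymes that build the lipid-linked sugar donor for N-glycosylation. Dpagt1 ranged from 4.10 to 5.05 in tuft and from 2.45 to 3.95 in non-tuft libraries (log2 fold change 1.41, adjusted p = 0.0361, limma), and Alg6 from 2.79 to 4.51 and from 0.49 to 3.45 (log2 fold change 2.05, adjusted p = 0.0418, limma). Neither call held when certain single libraries were left out. Dpagt1 lost its call with non-tuft library 1, 2 or 5 removed, or tuft library 1, 3 or 5, (adjusted p between 0.0580 and 0.0885) and Alg6 with non-tuft library 1, 4 or 5 removed, or tuft library 2, 3, 4 or 5, (adjusted p between 0.0672 and 0.10), and both did with 0.1 added to each RPKM (adjusted p = 0.0575 and 0.0885, limma). With 10 added, their log2 fold changes were 0.85 and 0.86.

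Of the regulators and targets of the unfolded protein response, the 7 that fell included the sensor Perk and genes induced downstream of it. Eif2ak3, which encodes Perk (chromosome 6, 70794509 to 70855239), was at 2.82, 2.05, 1.62, 1.82 and 0.60 in tuft libraries 1 to 5 and 3.89, 3.74, 3.26, 3.09 and 3.69 in non-tuft libraries 1 to 5. The groups did not overlap (log2 fold change -1.75, standard error 0.44, adjusted p = 0.0202, limma), and the call was lost without tuft library 3 (adjusted p = 0.0506) and under the ribosomal protein centring (log2 fold change -0.95, adjusted p = 0.115, limma). With 10 added to each RPKM, its log2 fold change was -0.70. Chac1, a glutathione-degrading enzyme induced downstream of Atf4 (chromosome 2, 119176965 to 119180117), had 0 in each of the 5 tuft libraries and 5.82, 5.44, 4.89, 5.11 and 2.67 in non-tuft libraries 1 to 5 (adjusted p = 1.02e-04, limma). Trib3, another gene induced downstream of Atf4, was likewise listed at 0 throughout the tuft group and at 2.46, 3.88, 2.29, 2.62 and 0 in non-tuft libraries 1 to 5 (adjusted p = 0.0240, limma). The call of Trib3 was lost when non-tuft library 1, 3 or 4 was removed, or tuft library 2, 3, 4 or 5 (adjusted p between 0.0513 and 0.0566), with 10 added to each RPKM (adjusted p = 0.0900, limma) and under the centring (adjusted p = 0.0908, limma). No fold change is given for either gene.

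Nupr1, a stress-induced nuclear protein of the injured pancreas (chromosome 7, 133766763 to 133770524), was at 2.68, 4.25, 2.03, 3.70 and 1.95 in tuft libraries 1 to 5 and 7.63, 9.17, 7.51, 7.60 and 8.67 in non-tuft libraries 1 to 5. Every tuft library lay far below every non-tuft library (log2 fold change -5.19, standard error 0.55, adjusted p = 6.08e-05, limma). The remaining genes of this class that fell, named after their values were seen, were Asns, Creb3l1 and Bhlha15. The log2 fold changes were -2.46 for Asns (adjusted p = 0.00733), -1.39 for Creb3l1 (adjusted p = 0.0437) and -3.79 for Bhlha15 (adjusted p = 1.78e-04, all limma). Bhlha15 is also one of the acinar markers.

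Atf4, Ddit3, Ppp1r15a, Atf6 and Ern2 did not pass. Atf4 was at 6.92, 5.41, 6.29, 6.07 and 5.70 in tuft libraries 1 to 5 and 6.87, 7.77, 6.85, 6.38 and 6.83 in non-tuft libraries 1 to 5 (log2 fold change -0.86, adjusted p = 0.222, limma), so its mRNA was well above the floor in every library of both groups. Ddit3, which encodes the death-associated factor Chop, ranged from 1.67 to 4.48 in tuft and from 3.37 to 6.37 in non-tuft libraries (log2 fold change -1.49, adjusted p = 0.168, limma). Ppp1r15a, the phosphatase cofactor that ends Perk signaling, ranged from 0 to 4.10 and from 2.09 to 5.45 (adjusted p = 0.354, limma). Atf6 had a mean of 4.87 ± 0.81 in tuft and 4.34 ± 0.86 in non-tuft cells (SD, n = 5 libraries each, adjusted p = 0.577, limma). Ern2, the Ire1 form of mucosal epithelia, ranged from 1.93 to 3.35 and from 0 to 5.01 (adjusted p = 0.817, limma). Ern1 was not among the listed genes and has no value here.

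**Figure D3:**
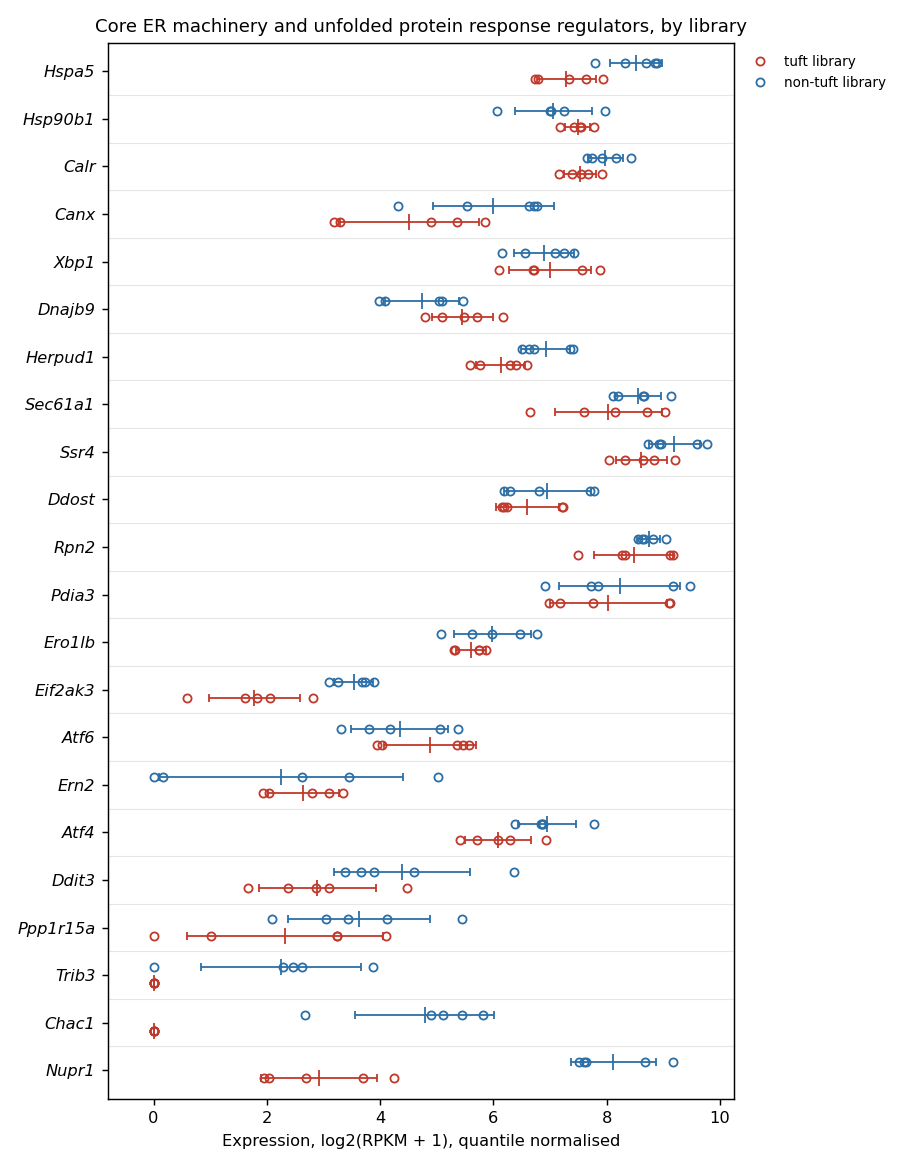
Expression on the log2(RPKM + 1) scale (horizontal axis) of ER genes that did not pass and of unfolded protein response regulators and targets. Shown are 1 open circle per library, a tick for the group mean and bars for the SD (n = 5 libraries). Tuft and non-tuft libraries overlap from Hspa5 to Ero1lb, whereas Eif2ak3, Chac1 and Nupr1 are separated, with Chac1 and Trib3 at 0 in all tuft libraries.

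Acinar signal varied among the tuft libraries and was set beside the largest differences. The linear level of each acinar marker was expressed as a percentage of its mean in the non-tuft libraries, and the median over the 27 markers was 10.2, 8.60, 2.56, 20.0 and 0.553 percent in tuft libraries 1 to 5. Pdia2 stood at 6.92, 1.97, 1.79, 7.76 and 0.303 percent of its non-tuft mean in the same libraries, and so followed the same order as the markers. Erp27 stood at 1.68, 0, 1.91, 0.507 and 0 percent, and Derl3 at 3.31, 0, 3.72, 0 and 5.92 percent. Derl3 was highest in tuft library 5, where the acinar markers were lowest, and at the floor in tuft library 4, where they were highest. The part of acinar RNA in the tuft values, and of acinar cells in the non-tuft values, was not tested.

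**Figure D4:**
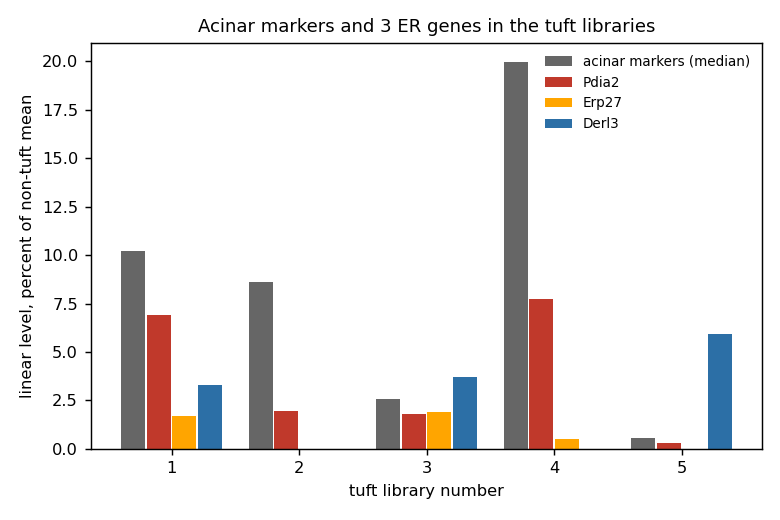
Linear level in each tuft library (horizontal axis, library number) as a percentage of the mean over the non-tuft libraries, for the median of 27 acinar markers and for Pdia2, Erp27 and Derl3. Library 4 has the tallest acinar bar at 20.0 percent and no Derl3, while library 5 has the lowest acinar bar at 0.553 percent and the tallest Derl3 bar at 5.92 percent.

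Libraries 3 and 5 of both groups listed the fewest genes at the floor, 1751 and 1538 in tuft and 1442 and 1627 in non-tuft cells, against 2349 to 3753 in the other 6 libraries. Several ER genes varied with this property. Pdia3 was at 6.99, 7.18, 9.10, 7.75 and 9.13 in tuft libraries 1 to 5 and 7.73, 6.91, 9.17, 7.85 and 9.48 in non-tuft libraries 1 to 5. Libraries 3 and 5 were thus well above the others in both groups. Ddost, Stt3a, Rpn2, Pdia4, Xbp1, Dnajb9, Dnajc12, Edem2 and Ssr3 likewise had libraries 3 and 5 above 1, 2 and 4 in both groups, which makes 10 of the 88 genes (11.4%), against 3.60% of all genes. In 3 members (Sec61b, Sec61g and Sec62), libraries 3 and 5 were lowest in both groups, against 4.38% of all genes. These genes were named after their values were seen, and what sets the libraries apart was not tested.

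All 16 lower genes had a lower mean in tuft cells within libraries 3 and 5, with log2 differences from -6.92 to -1.06. Within libraries 1, 2 and 4 the differences ran from -7.39 to -1.19. The genes were chosen as lower over these same libraries, and most had no overlap between the groups. A lower mean in each part thus followed from that choice and is no further support. With a term for the split in the limma fit, chosen after the data were seen, all 16 remained lower and Edem3, Sec61g and Stt3a joined them. For Stt3a, a catalytic subunit of the oligosaccharyltransferase at 4.85, 4.80, 6.19, 5.32 and 6.40 in tuft libraries 1 to 5 and 5.65, 6.52, 7.16, 6.12 and 7.66 in non-tuft libraries 1 to 5, the adjusted p went from 0.186 to 0.0483 (limma).

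**Figure D5:**
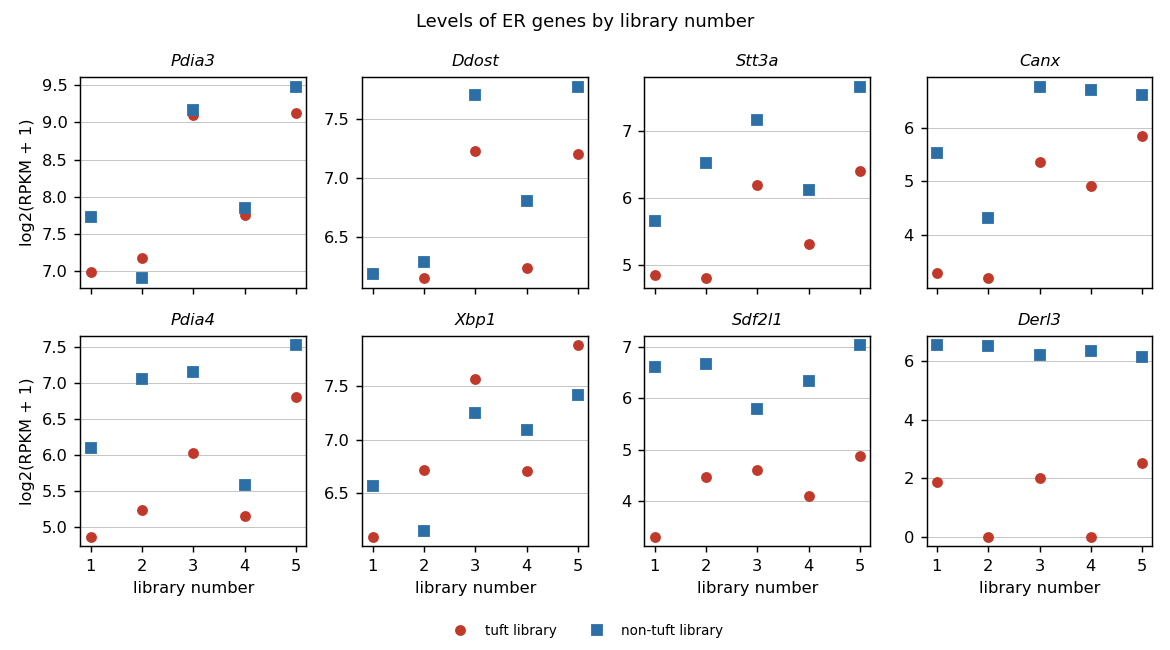
Expression on the log2(RPKM + 1) scale (vertical axes, which differ between panels and do not start at 0) of 8 ER genes by library number, with red circles for tuft and blue squares for non-tuft libraries. Libraries 3 and 5 are high in both groups for Pdia3, Ddost, Stt3a, Pdia4 and Xbp1, while Sdf2l1 and Derl3 keep the red circles below the blue squares throughout.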

How the data were processed

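RNA-seq libraries of 5 pancreatitis tuft and 5 non-tuft epithelial samples were made with Smart-Seq2 and analysed from 1 deposited table. Per the study's methods and the submitters' processing notes, the authors checked reads with FastQC, aligned them with HISAT2 to mm9, quantified genes with StringTie and Ballgown, removed genes whose RPKM varied little across samples, and deposited log2 values of RPKM after quantile normalization. The 1 added before the logarithm was read from the values, whose minimum is 0. The study made this removal to exclude genes that were not expressed. Quantile normalization gives all libraries one distribution, so levels are relative. The columns that hold the authors' own comparison, a ratio or fold change, its p-value and an FDR, were deposited beside them and were not used. Whether counting used strand, and the versions of these tools, are not given in the sources used here.

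The tuft and non-tuft libraries were compared over all 12160 genes with limma 3.58.1 (lmFit and eBayes, R 4.3.3), with Benjamini-Hochberg adjusted p under 0.05 as the threshold, as a test of log2 values without counts. The study also asked for a fold change over 4, which was tried as an alternative. Each library was 1 animal sample, and depth per library is unknown, so no counting interval could be given. The members and all gene lists were chosen with earlier results of these data known.

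Genes were named by rule: in each role class the 3 lower and the 3 higher genes with the smallest p, likewise over the second list, together with preset core genes and regulators of the unfolded protein response. Genes outside the rule (among them Rpn2, Stt3a, Srp54a, Srp54c, Derl1, Derl2, Edem3 and Sec61g) were chosen after their values were seen, and genes at the floor throughout a group got no fold change. Marker lists for tuft, acinar, ductal, islet, leukocyte, stromal and eosinophil cells were summed on the linear scale. Of these, 2 of 9 listed ductal and 4 of 13 islet markers were lower in tuft cells, 1 of 6 leukocyte markers was higher, and 0 of 6 stromal markers passed. Promoter sequences came from RefSeq (GRCm38.p6) and gene positions from GENCODE vM1 on NCBIM37, the assembly named mm9 elsewhere. Tables and plots were made with Python 3.11.15, pandas 2.3.3, numpy 2.4.6 and matplotlib 3.10.9.

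Alternatives were the replicate number as a block, 0.1 or 10 in place of 1 added before the logarithm, a minimum log2 mean of 2, subtracting the median of ribosomal protein genes from each library, trended and robust variance estimates, an adjusted p under 0.01, each library left out in turn and, added after the data were seen, a term for libraries 3 and 5 of each group.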

Additional observations from a re-analysis of the deposited data

Results flagged for a closer look

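Within groups of 5 libraries, a library was singled out where its gap to the nearest other, divided by the range of the group, exceeded Dixon's critical value of 0.71. Of 100 groups checked, 4 were singled out, and chance alone gives about 1 in 20. All 4 belong to the Srp54 copies, whose reads cannot be assigned with certainty. Tuft library 1 had 0 for Srp54b and 2.02 for Srp54a, lower than the other tuft libraries in both. Non-tuft library 2 had 0.17 for Srp54b and 0.17 for Srp54c, which is the floor of that library.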

How the results depend on the processing

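Of the ER genes, 16 were lower and 1 was higher in tuft cells. With the replicate number as a block (replicate block), 16 were lower, of which 14 were among the original 16. Srp72 and Ssr1 left and Canx (adjusted p = 0.0419, limma) and Sec61g joined. Of the other pathway genes 22 were lower, with Ddit3 passing (adjusted p = 0.0421, limma), and 0 higher, against 2 higher without the block. Same-numbered libraries deviated together with correlations of 0.12, 0.079, 0.11, 0.062 and 0.24. Tuft and non-tuft libraries of different numbers had a median correlation of -0.033, with a range from -0.17 to 0.14. Tuft libraries 2, 4 and 5 correlated best with the non-tuft library of their own number. Tuft library 1 stood at 0.1236 with its own number and 0.1243 with non-tuft library 2. The samples were not treated as paired because no label ties a number to a mouse.

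Centring on ribosomal protein genes gave 4 lower and 6 higher members, 9 lower and 9 higher other pathway genes, 2470 genes past the threshold in all against 1428, and a member median of 0.33 in place of -0.47. Requiring a fold change over 4 gave 9 lower members and 1 higher pathway gene. An adjusted p under 0.01 gave 7 lower members, 0 higher pathway genes and 733 genes in all. With 10 added before the logarithm, 2 members and 5 pathway genes were higher. With a minimum log2 mean of 2, which removes Srp54b, 0 members and 5 pathway genes were higher. With 0.1 added, 0 pathway genes were higher, and with a term for libraries 3 and 5, 1 was. Leaving out 1 library gave 11 to 16 lower members, 1 to 2 higher members, 17 to 22 lower and 0 to 3 higher pathway genes. The cause was not tested except for the stricter thresholds, where fewer genes can pass. The other counts of lower and higher members, pathway genes and genes in all, and the other values of the member median, kept their direction and the counts stayed within 1.5 times. Over the alternatives for the 50 named genes, 761 values kept their side of the threshold, 75 lost it and 11 gained it, and none past the threshold changed direction. Below the threshold, the differences of Calr, Ero1lb, Herpud1, Sec61a1, Ssr4, Spcs1, Ddost, Rpn2 and Pdia3 turned from negative to positive under the centring. Counts per role class moved by over 1.5 times in 25 of 114 cases.

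Limits are the 100 cells per library, the unknown depth, the mixture of cells in the non-tuft gate and the relative scale that quantile normalization leaves.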
